A study of Oryzias latipes with 48 samples.

Results

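The daily profile of gene expression at the winter solstice was described from the 12 RNA-seq libraries that carry the winter label, out of 48 libraries in a series on medaka (Oryzias latipes), a small freshwater fish that breeds in long days. The 12 libraries were taken as all winter libraries of the deposited table, at clock hours 2, 6, 10, 14, 18 and 22, with 2 libraries at each hour. Every library held the same block of tissue, made up of hypothalamus, pituitary and the lower (ventral) telencephalon, from fish that lived outdoors at 35.0 degrees north and 137.2 degrees east in Okazaki, Japan. The other 36 libraries came from the spring equinox, the summer solstice and the autumn equinox, with 12 each at the same hours. RNA was selected by its poly-A tail and sequenced in a strand-specific way. The strain, sex, age and number of fish behind a library, the water temperature and any batch were not given in the labels. Nothing states that libraries of 1 hour came from separate fish, so the p-values below measure the spread between these libraries, which may be technical. The labels give 1 period of 24 h per season and no sampling date. A daily rhythm therefore cannot be told apart from events within that period, and season cannot be told apart from collection date.

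From the latitude and the date of the solstice, sunrise was computed at clock hour 6.92 and sunset at 16.73, a day of 9.8 h. Hour 6 therefore lay 0.92 h before sunrise, hour 10 lay 3.08 h after it, hour 14 lay 2.73 h before sunset and hour 18 lay 1.27 h after sunset. Hours 10 and 14 (4 libraries) were called day, and hours 2, 6, 18 and 22 (8 libraries) were called night.

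Vertebrate cells keep daily time with a transcriptional loop in which CLOCK or NPAS2 with BMAL1 switch on period and cryptochrome genes, whose proteins then repress their own transcription, and many fish tissues set this loop directly by light. A different set of genes, the activity-induced or immediate early genes such as fos, egr1 and npas4, is switched on within minutes when neurons fire or cells are stimulated. In the brain and pituitary, glucocorticoids, feeding and sleep also impose daily changes, among them on peptide hormones that govern body colour, reproduction and metabolism.

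FPKM values (fragments per kilobase of transcript, scaled to the mapped fragments of the library) summed to between 333336 and 354554 per winter library, and 23693 to 23849 entries had a value above 0. The number of reads per library is unknown, because only FPKM values were used. On the log2(FPKM + 1) scale, libraries of the same hour correlated across genes at 0.983 to 0.988 (median 0.986) and libraries of different hours at 0.976 to 0.986 (median 0.982). The first principal component of the 12 libraries held 19.1% of the variance. The 4 day libraries scored 9.6 to 19.2 on it, the first library of hour 6 scored 8.2 and the other 7 night libraries scored −16.6 to −1.9. That same hour 6 library stood apart on the second component (14.1% of the variance), with a score of 22.9. Of the defining genes of the labelled tissue, pituitary somatotropin (growth hormone, LOC101171460) was at 1535 to 3648 FPKM and hypothalamic oxt at 55.8 to 134, while the single entry named prl was at 0 to 0.16 FPKM.

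Few genes were called as differing between clock hours in winter, and more were called lower than higher by day. Of 16481 genes tested with limma, 142 (0.862%) differed between the 6 hours at a Benjamini-Hochberg adjusted p under 0.05. A 24 h cosine curve was called for 253 genes (1.54%). At an unadjusted p under 0.05, the limma tests over the 6 hours and of the cosine curve had 2777 and 3350 genes. With 2 libraries per hour, a gene that was not called may still differ. The cosine test in each other season's own 12 libraries called 14 genes in spring, 1511 in summer and 1424 in autumn. In the day against night comparison 319 genes (1.94%) were higher and 464 (2.82%) were lower by day. All 4 day libraries lay above all 8 night libraries for 187 of the 319, and below them for 282 of the 464. Genes named below by rank for day against night, or for a single hour, were required to have separate libraries. For those genes the separation is no added support. Of all called genes, with separate groups or not, 5 were at least 2-fold higher and 9 at least 2-fold lower by day. All folds below are differences of log2(FPKM + 1) put back on a linear scale, which understates the change of weakly expressed genes. These counts depended on single libraries. The day against night count of 783 fell to 177 without the first library of hour 10, 376 without the second, 194 and 324 without the first and second of hour 14, 394 without the second of hour 22, 462 without the first of hour 18 and 464 without the first of hour 2. The count over the 6 hours was 71 and 81 without the first and second library of hour 10 and 84 and 83 without those of hour 22.

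Of the 253 genes with a cosine curve, 145 had a fitted peak between hours 20 and 4 and 82 between hours 8 and 16. Over all 16622 genes of a fit of all 48 libraries, the winter peak fell in these windows for 6228 and 6227. Both windows were thus common among all genes as well. Peaks between hours 20 and 24 were found for 84 genes (33.2%) and between hours 0 and 4 for 61 (24.1%). Another 49 (19.4%) peaked between hours 8 and 12 and 33 (13%) between hours 12 and 16. Only 7 (2.77%) peaked between hours 4 and 8, around dawn, and 19 (7.51%) between hours 16 and 20. Amplitudes, the log2 distance from the middle of the curve to its peak, had a median of 0.26 and reached 1.23, and 34 genes had an amplitude of 0.5 or more. The count of curves was 24 and 27 without the first and second library of hour 10, 32 and 71 without the second and first of hour 22, 49 and 120 without the first and second of hour 2, 55 and 69 without the second and first of hour 14 and 77 without the second of hour 18.

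**Figure D1:**
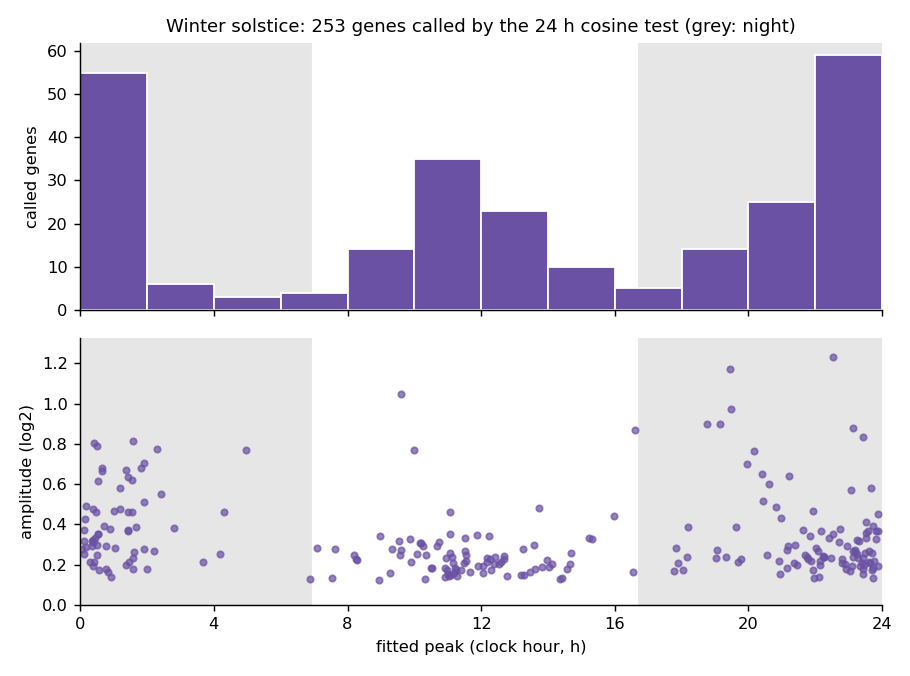
Fitted peak hour (x axis, clock hour) of the 253 genes with a called 24 h cosine curve in winter, as counts per bin and as amplitude on the log2(FPKM + 1) scale per gene. Peaks fell between hours 20 and 4 for 145 genes and between hours 8 and 16 for 82, with few around dawn. Over all 16622 genes of a fit of all 48 libraries, these windows held 6228 and 6227 winter peaks.

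Activity-induced genes were low by day in winter, and their low point was the morning. Of 26 tested members of that list, 17 fell by day in the day against night comparison and 0 rose, beside 2.82% and 1.94% of all genes. Their median day minus night difference was −0.67 log2 units, against 0.01 over all genes tested. The list's median difference from the other hours was −0.74 log2 units at hour 10, where 16 of 26 members fell beside 1.06% of all genes, and −0.08 at hour 14. The mean was lowest at hour 10 for 18 of the 26 members (69.2%), against 17.9% of all genes tested. With hour 14 alone as day, an alternative chosen after seeing the data, 6 of the 26 were lower, beside 63 of all 16481 genes tested. Highest means fell at hour 2 for 9 members and at hour 22 for 9, against 2097 and 3886 of all 16481 genes tested.

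npas4, a transcription factor induced by calcium entry in firing neurons, stood at 38.1 and 34.4 FPKM in the 2 libraries of hour 2, 33.7 and 32.6 at hour 6, 9.99 and 10.9 at hour 10, 24.0 and 23.7 at hour 14, 25.9 and 29.2 at hour 18 and 34.9 and 32.9 at hour 22. All day libraries lay below all night libraries, and both hour 10 libraries lay below every other. The day mean was 1.99-fold lower (log2 difference −0.99, SE 0.05, adjusted p = 2.27e-05), and hour 10 was 2.76-fold below the mean of the other hours (adjusted p = 1.03e-05). The step across sunrise, hour 10 against hour 6, was a 2.98-fold decline.

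fosB (fosb), a subunit of the AP-1 transcription factor, was at 29.9 and 26.0 FPKM at hour 2, 32.8 and 30.3 at hour 6, 7.52 and 7.38 at hour 10, 12.3 and 12.9 at hour 14, 11.95 and 14.6 at hour 18 and 22.4 and 23.3 at hour 22. It was high in the late night, dropped by hour 10 and was still low after sunset, so that the first hour 18 library lay within the day range. The day difference was −1.15 log2 units (SE 0.06, adjusted p = 2.55e-05). Hour 6 was 2.00-fold above the other hours (adjusted p = 0.00125), and its cosine curve peaked at hour 1.59 with an amplitude of 0.81 (adjusted p = 0.0471, lost without any 1 of 10 libraries). egr1, an early growth response factor, behaved differently after midday. Its 2 hour 10 libraries were at 17.4 and 22.9 FPKM, while the other 10 libraries lay between 63.2 and 98.9, hour 14 included. It was 4.05-fold lower at hour 10 than at the other hours (log2 difference −2.02, SE 0.11, adjusted p = 2.89e-05).

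c-fos, the classic immediate early gene, was also lowest at hour 10. It is named here by its rank among all genes because its symbol lay outside the list's name patterns. Other list entries described as c-Fos (LOC101165186, LOC101167759), junB (LOC101169770) and npas4-like (LOC101171356) are not given singly here. c-fos was at 4.19 and 7.05 FPKM at hour 10 and at 21.2 to 47.5 in the other 10 libraries, a 5.81-fold difference (adjusted p = 3.59e-05). A further egr1 entry (LOC101160576) was at 1.06 and 1.57 FPKM at hour 10 and at 8.3 to 15.6 elsewhere. junB (LOC101164062), an AP-1 subunit, was at 18.6 and 23.1 FPKM at hour 10 and at 53.5 to 79.5 elsewhere, and ier2, an immediate early response gene, was at 5.1 and 5.7 and at 12.9 to 23.4. For 13 of the 17 members called lower by day, both hour 10 libraries lay below all 10 others. Hour 10 is part of day in that call, and the count was not made over all genes, so it is only a description. All 4 day libraries lay below all 8 night libraries for 6 of the 17. This was a smaller share than the 282 of 464 over all genes called lower by day. The egr1 entries may share reads, as may the fos entries.

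The remaining called members moved less. fosl2, another AP-1 subunit, was at 16.8 to 23.04 FPKM by day and 23.7 to 37.9 by night, and jund at 15.1 to 22.1 and 22.8 to 35.3. egr3 was at 6.94 to 8.74 FPKM by day and 10.98 to 15.7 by night. These groups did not overlap. dusp1, a phosphatase that switches off MAP kinases, was at 5.46 to 12.03 FPKM by day and 11.5 to 15.6 by night, and the orphan nuclear receptor nr4a3 at 3.74 to 4.83 and 4.67 to 10.3. The day and night ranges of these 2 genes overlapped slightly. Over the 17 called members the day minus night difference ran from −0.41 (jun) to −1.33 (LOC101160576) log2 units. The weakest call, egr2 (adjusted p = 0.023), was lost without either hour 14 library, the first hour 10 library or the second hour 22 library.

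**Figure D2:**
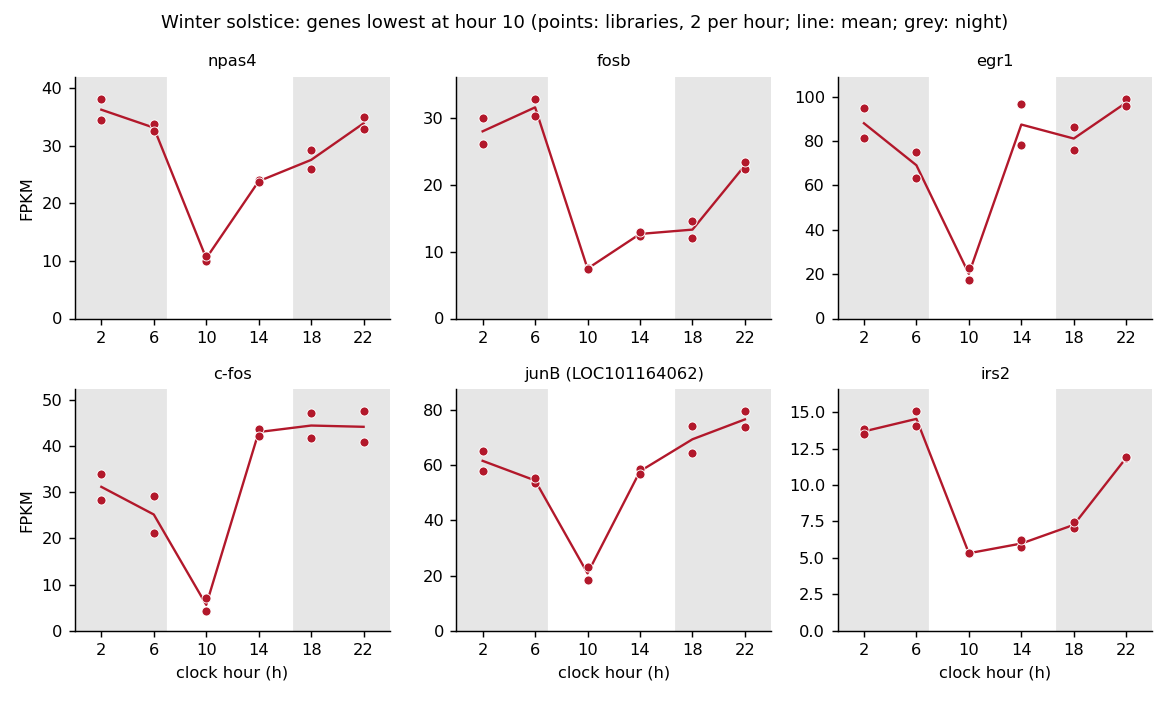
FPKM (y axis, from 0) by clock hour (x axis) in each of the 12 winter libraries for npas4, fosb, egr1, c-fos, junB and irs2, with lines through the means of 2 libraries. Hour 10 is the low point of npas4, egr1, c-fos and junB, while fosb and irs2 stay low through hour 14.

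Of the genes outside the list that ranked highest in the test over the 6 hours, irs2, LOC101168635, LOC101171679, rrad and both reticulon-4 receptor-like 2 entries were also lower by day, while CDK17 (described with the single hours) was high at hour 18. irs2, an adaptor of the insulin receptor, was at 13.8 and 13.5 FPKM at hour 2, 14.0 and 15.1 at hour 6, 5.32 in both libraries of hour 10, 5.77 and 6.20 at hour 14, 7.06 and 7.47 at hour 18 and 11.8 and 11.9 at hour 22. It fell across sunrise by 2.46-fold and was 1.88-fold lower by day (adjusted p = 2.27e-05), with separate groups. A DnaJ homolog (LOC101168635, DNAJB5), a co-chaperone, was at 27.8 and 39.4 FPKM at hour 10, 110 to 119 at hour 14 and 110 to 230.3 at night, so that hour 14 overlapped with the night (2.83-fold lower by day, adjusted p = 8.95e-05). An adhesion receptor (LOC101171679, ADGRB1) was at 44.7 to 52.7 FPKM from hour 10 to hour 14, 47.4 and 53.0 at hour 18, 87.2 and 99.4 at hour 22 and 102 to 125 at hours 2 and 6. It had the smallest cosine p, with an amplitude of 0.78 (SE 0.05), a peak at hour 2.29 and an adjusted p of 0.000106, and it was also 0.78 log2 units below the other hours at hour 14 (adjusted p = 0.00513), a call lost without either hour 14 library. rrad, which restrains calcium channels, was at 7.28 to 15.1 FPKM by day and 17.1 to 28.3 by night. One of 2 reticulon-4 receptor-like 2 entries (LOC101165034) was at 20.5 to 44.7 FPKM by day and 43.9 to 83.6 by night, with a slight overlap, and both were lower by day (2.28-fold and, for LOC101166142, 1.82-fold).

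Other genes with called cosine curves included dusp6 and dusp4, phosphatases of the ERK pathway, with peaks at hours 23.8 and 0.7 and amplitudes of 0.33 and 0.39. klf2 peaked at hour 19.6 and klf4 (LOC101166663) at hour 1.92, both zinc finger factors induced early in many cells. The peptide gene rln (relaxin 3c) was at 3.37 to 5.61 FPKM by day and 7.15 to 11.7 by night, a 1.99-fold difference with separate groups (adjusted p = 0.000599). creg1 peaked by day, at hour 13.7 with an amplitude of 0.48. It was at 25.6 to 36.3 FPKM by day and 17.5 to 28.8 by night, and these ranges overlapped.

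Core clock genes had low-amplitude profiles in winter. Of 20 tested repressors (period, cryptochrome, nr1d, CIART, CIPC and bhlhe41 entries), 5 were lower and 0 higher by day, beside 2.82% and 1.94% of all genes. A cosine curve was called for 4 of the 20, beside 1.54% of all genes, and 0 differed in the test over the 6 hours. Of 11 activators 2 were lower by day, and of 8 PAR bZIP and NFIL3 factors, which carry clock output, 2 were lower, beside the same 2.82%. The list medians of day minus night were −0.14, −0.05 and −0.10 log2 units. per2 was at 16.9 and 15.8 FPKM at hour 2, 11.9 and 16.02 at hour 6, 10.3 and 11.5 at hour 10, 12.7 and 11.3 at hour 14, 13.8 and 15.2 at hour 18 and 17.5 and 18.4 at hour 22. The first hour 6 library lay within the day range. per2 was 1.33-fold lower by day (adjusted p = 0.0185), a call lost without the first hour 10 library or either hour 14 library, and its curve peaked at hour 23.2 with an amplitude of 0.32 (adjusted p = 0.0211).

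A different per2 entry (LOC101161338) was at 21.2 to 24.98 FPKM by day and 27.5 to 38.8 by night (1.47-fold, adjusted p = 0.00348). The cryptochrome-1 entries LOC101160902 and LOC101174986 were at 20.5 to 25.6 and 3.7 to 4.94 FPKM by day and at 26.6 to 37.5 and 5.11 to 7.79 by night. The day and night libraries did not overlap for these 3 genes, and their curves peaked at hours 22.7 to 23.9. The curves of per2 and of these 3 genes were not called with 1 spread over all 48 libraries. The other called clock genes were cryptochrome-2 (LOC101173389), ROR-beta (LOC101164545, LOC101170052), thyrotroph embryonic factor (LOC101164258) and nfil3 (LOC101175377), with differences of −0.17, −0.39, −0.20, −0.32 and −0.31 log2 units. The 2 cryptochrome-1 calls and those of LOC101164545, LOC101164258 and LOC101175377 were each lost without the first hour 10 library. The cryptochrome-2 call was lost without any 1 of the 12 libraries, and that of LOC101170052 without any 1 of 9. per1 was at 16.7 to 17.7 FPKM by day and 12.7 to 21.7 by night, and its difference did not pass the test (adjusted p = 0.352). Among 7 genes of light response and DNA repair, 1 was lower by day, beside 2.82% of all genes. It was lonrf1 (log2 difference −0.30, adjusted p = 0.00453).

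The daily curves of most clock genes differed between winter and summer and between winter and autumn. The difference of the fitted daily curves passed the test for 866 of 16622 genes against spring (5.21%), 1621 against summer (9.75%) and 1695 against autumn (10.2%). These 3 comparisons share the winter libraries. Without single winter libraries the spring count was 340 and 436 (second and first of hour 22), 388 (first of hour 10) and 546 (first of hour 6). The curve differed for 1, 19 and 18 of the 20 clock repressors against spring, summer and autumn. The median amplitude of the repressors was 0.15 in winter, 0.18 in spring, 1.05 in summer and 1.02 in autumn. For the 11 activators it was 0.10, 0.08, 0.62 and 0.78. Of these, the curve differed from winter for 1, 10 and 10.

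bhlhe41, a repressor that light and the clock both induce, ranged over 40.4 to 49.6 FPKM across the 12 winter libraries, against 19.8 to 151 in summer and 16.2 to 157 in autumn. Its amplitude was 0.05 in winter and 1.48 in summer. The nuclear receptor nr1d1 (LOC101173939, REV-ERB alpha) ranged over 6.99 to 12.5 FPKM in winter and 2.75 to 48.8 in summer, with amplitudes of 0.20 and 1.98. The gene for BMAL1 (LOC101159313) ranged over 13.8 to 18.6 FPKM in winter, with an amplitude of 0.12, against 1.01 in summer and 1.14 in autumn. per3 (LOC101159817) was at 22.5 to 29.7 FPKM in winter and 15.5 to 62.3 in summer, and hlf (LOC101163688), a PAR bZIP factor, at 23.7 to 32.9 and 8.51 to 121. npas2 (LOC101172430) ranged over 10.3 to 13.2 FPKM in winter and 3.02 to 14.8 in autumn. ROR-beta-like (LOC101170052) had an amplitude of 0.13 in winter and 1.38 in summer. For bhlhe41, nr1d1, per3, hlf and npas2, the summer or autumn libraries thus reached values both above and below all 12 winter libraries.

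For the 2 period 2 entries and the 4 cryptochrome-1 entries, the fitted peak hours of winter and summer are given as a description, since the test was of the whole curve. per2 peaked at hour 23.2 in winter and at hour 12.2 in summer. The entry LOC101161338 peaked at hours 23.9 and 10.8, the cryptochrome-1 entry LOC101160902 at hours 22.7 and 7.69 and LOC101174986 at hours 23.3 and 12.5. LOC101160902 was at 0.89 to 8.04 FPKM in summer, below all its winter values. The remaining cryptochrome-1 entries peaked at hours 23.6 and 12.5 (LOC101167667, winter amplitude 0.19) and at hours 2.01 and 17.4 (LOC101164536, winter amplitude 0.03), and the curves of both differed between winter and summer at an adjusted p under 0.05. For per2, LOC101161338, LOC101160902 and LOC101174986 the difference between the curves also passed, with adjusted p-values of 5.37e-08, 0.00064, 5.52e-06 and 1.22e-07.

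The daily curves of most activity-induced genes also differed between winter and summer. The fitted peak fell between hours 20 and 4 for 22 of 26 members in winter and 17 in spring, but for 2 in summer, when 17 peaked between hours 8 and 16. Over all 16622 genes, the peak fell between hours 20 and 4 for 6228 in winter, 5531 in spring and 4832 in summer. Between hours 8 and 16 the peak fell for 4792 of all genes in summer. In autumn 2 members peaked between hours 20 and 4 and 11 between hours 8 and 16. Over all genes the autumn counts were 5579 and 5168. Median amplitudes of the 26 members were 0.46 in winter, 0.28 in spring, 0.24 in summer and 0.39 in autumn. The curve differed from winter for 0 members in spring, 15 in summer and 16 in autumn, beside 5.21%, 9.75% and 10.2% of all genes. npas4 had an amplitude of 0.64 with a peak at hour 23.5 in winter and 0.47 with a peak at hour 12.4 in summer (adjusted p of the difference 0.0209). fosb peaked at hour 1.59 in winter and 11.7 in summer (adjusted p of the difference 0.0147). egr1 had an amplitude of 0.79 in winter and 0.18 in summer (adjusted p of the difference 0.0319). The npas4 and egr1 differences were lost without either hour 10 library of winter.

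**Figure D3:**
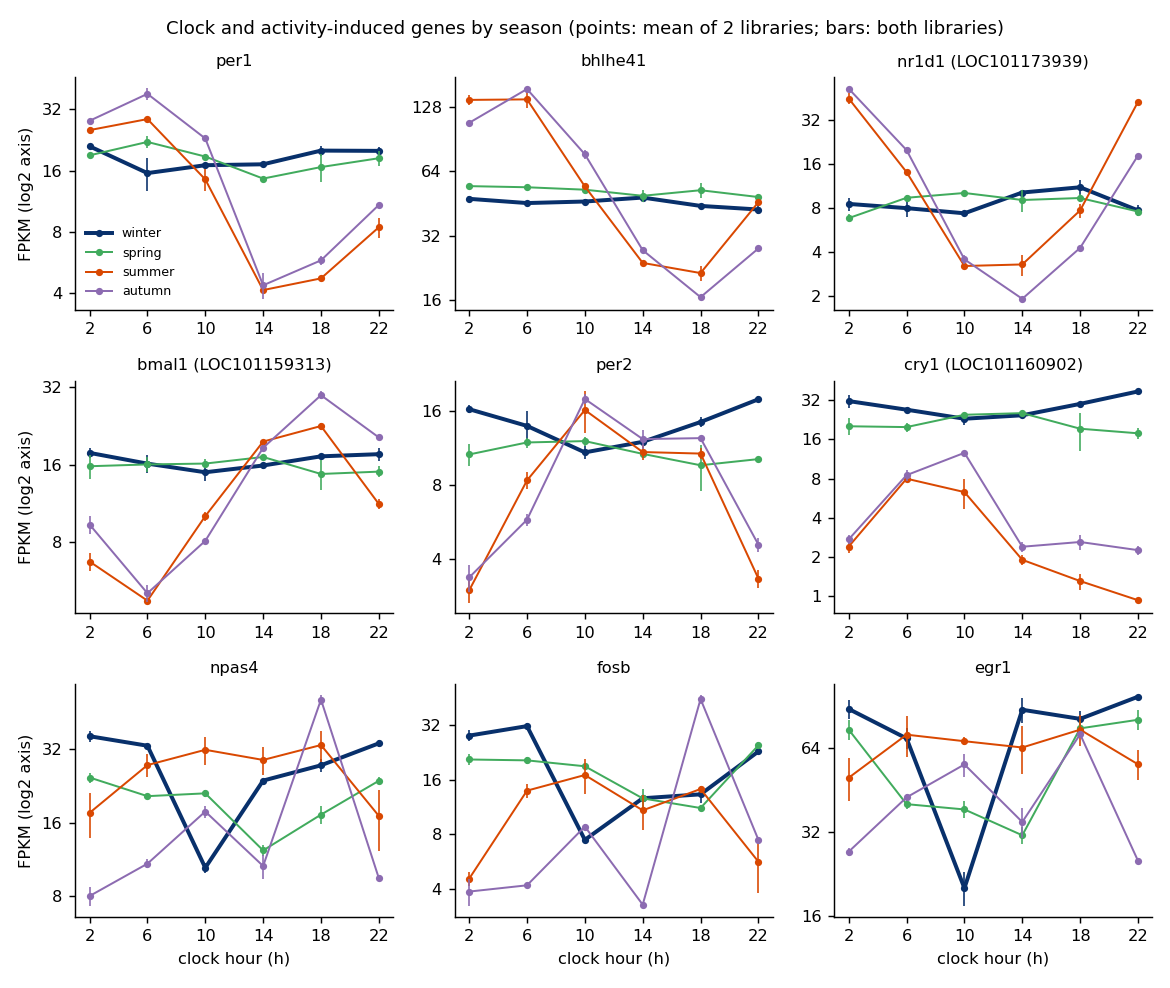
Mean of 2 libraries (points) by clock hour (x axis) on a log2-scaled FPKM axis for 6 clock genes and 3 activity-induced genes. Each season has 1 line, and bars run from the lower to the higher library. The winter lines of per1, bhlhe41, nr1d1 and the BMAL1 gene are nearly flat beside those of summer and autumn, and those of per2, cry1, npas4 and fosb are higher at night than by day.

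Glucocorticoid-responsive genes were low by day in part. Of 14 tested, 4 were lower by day and 0 higher, beside 2.82% and 1.94% of all genes, with a list median of −0.15 log2 units. klf9, a zinc finger factor induced by glucocorticoids and thyroid hormone, was at 41.7 and 45.1 FPKM at hour 2, 49.4 and 35.8 at hour 6, 23.5 and 23.8 at hour 10, 26.2 and 26.8 at hour 14, 26.9 and 29.4 at hour 18 and 41.3 and 42.8 at hour 22. The day and night libraries did not overlap, though hour 18 lay close to the day values (1.51-fold, log2 difference −0.60, SE 0.07, adjusted p = 0.00283). FKBP5 (LOC101157675), a co-chaperone of the glucocorticoid receptor, was highest before dawn, at 68.4 and 60.1 FPKM at hour 6, and lowest at 33.8 and 35.5 at hour 10 and 35.3 and 37.3 at hour 14 (1.42-fold lower by day, adjusted p = 0.00261). Night values outside hour 6 were 40.3 to 50.3 FPKM, above all day values. With 1 spread estimated over all 48 libraries, the adjusted p was 0.0615 for klf9 and 0.300 for FKBP5. A kinase entry described as Sgk1 (LOC101162537) and TSC22D3 (LOC101161414), an anti-inflammatory factor, were lower by day, with differences of −0.22 and −0.23 log2 units. The first call was lost without the first library of hour 10 or of hour 14, and the second without any 1 of 9 libraries. The entry with the symbol sgk1, a further Sgk1 entry (LOC101169880) and a further klf9 entry (LOC101165098) were tested and not called.

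Some heat shock genes were also lower by day. On the list of 21 tested cold and heat response genes 6 were lower and 0 higher, beside 2.82% and 1.94% of all genes, and the list's median was −0.10 log2 units. Other HSP70 and HSP90 members, such as hsp90ab1, hspa4 and hspa4l, did not pass the test. An HSP70 entry (LOC111947723) was at 14.0 and 17.1 FPKM at hour 2, 5.99 and 6.95 at hour 6, 2.38 and 3.93 at hour 10, 4.18 and 3.48 at hour 14, 7.22 and 7.03 at hour 18 and 7.19 and 7.20 at hour 22. All day libraries lay below all night libraries (2.14-fold, adjusted p = 0.000539), and hour 2 was 2.62-fold above the other hours (adjusted p = 0.00507), a call lost without the second hour 2 library. A closely related HSP70 entry (LOC101169944) differed by −0.79, an HSP70 4-like entry (LOC101166977) by −0.51 and HSP90 alpha (LOC101169506) by −0.32 log2 units. hsf2, a heat shock transcription factor, differed by −0.23, and its call and that of HSP90 alpha were lost without the first library of hour 10 or of hour 14. Related HSP70 entries may share reads. The weakest call, the cognate HSP70 (LOC100125490, −0.19), was lost without any 1 of 10 libraries.

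Several pituitary and hypothalamic peptide genes were higher by day. Of 9 pituitary hormone genes tested, 3 were higher and 0 lower, and of 30 hypothalamic peptide genes, 3 were higher and 1 lower, with list medians of 0.10 and 0.21 log2 units. Over all genes 1.94% were higher and 2.82% lower, and the share of hypothalamic peptide genes called lower was near the latter. Somatolactin (LOC100049402), a pituitary hormone of the growth hormone family that governs body colour in medaka, had the largest day rise among named genes. It was at 62.0 and 66.4 FPKM at hour 2, 71.0 and 48.5 at hour 6, 166 and 131 at hour 10, 91.0 and 122 at hour 14, 24.1 and 30.7 at hour 18 and 34.8 and 26.8 at hour 22. Day and night did not overlap, and hours 18 and 22 were lowest. It was 2.91-fold higher by day (log2 difference 1.54, SE 0.13, adjusted p = 0.000331) and fell by 1.91 log2 units across sunset, from hour 14 to hour 18 (adjusted p = 0.0164), a call lost without either hour 14 library or the first of hour 18. Its hour 10 excess of 1.52 log2 units (adjusted p = 0.00206) was lost without the first hour 10 library (adjusted p = 0.063).

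pomc encodes the precursor of corticotropin and of melanocyte-stimulating hormone. Its level was at 532 and 387 FPKM at hour 10, 355 and 338 at hour 14, 284 and 287 at hour 18, 280.4 and 342 at hour 22, 256 and 223 at hour 2 and 154 and 211 at hour 6. The hour 14 and hour 22 libraries overlapped. The day mean was 1.59-fold higher (log2 difference 0.67, SE 0.11, adjusted p = 0.0101), a call lost without the first hour 14 library (adjusted p = 0.0567). The rise across sunrise was 1.33 log2 units (adjusted p = 0.00689), and it was lost without the first hour 10 library. The other pro-opiomelanocortin entries of the list, LOC101168338 and LOC101164777, were tested and not called for day against night. cga, the subunit that thyrotropin and the gonadotropins share, was at 404 and 423 FPKM at hour 10 and 618 and 441 at hour 14, and at 235 to 355.7 by night, with no overlap (1.58-fold, adjusted p = 0.00613). Its hormone partners did not pass the test. The differences were 0.47 for fshb, 0.03 for lhb and −0.05 for the thyrotropin beta entry LOC101171658, in log2 units, with adjusted p of 0.0868, 0.923 and 0.882.

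Somatotropin (LOC101171460) followed another course. It was at 3155 and 3448 FPKM at hour 2, 2033 and 2259 at hour 6, 2672 and 2839 at hour 10, 1915 and 1535 at hour 14, 1729 and 1706 at hour 18 and 3648 and 2659 at hour 22. It differed between the 6 hours (adjusted p = 0.0371) but not between day and night (log2 difference −0.19, adjusted p = 0.269). In this bulk tissue, fewer cells of a type, a dissection that took less of the pituitary and less RNA per cell cannot be told apart. The summed FPKM of the 11 pituitary list genes was 2585 to 3935 by day and 2366 to 4435 by night, and these ranges overlapped.

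oxt, a fish oxytocin gene, was at 96.1 and 113 FPKM at hour 10, 134 and 113 at hour 14 and 55.8 to 89.9 by night. Day and night did not overlap (1.62-fold, log2 difference 0.69, SE 0.12, adjusted p = 0.0155), and the call was lost without the second hour 10 or the first hour 14 library. gnrh3, a gonadotropin-releasing hormone gene, was at 21.3 and 18.3 FPKM at hour 10, 13.6 and 15.3 at hour 14 and 10.5 to 12.8 by night, a 1.41-fold difference (adjusted p = 0.00104) without overlap. With the spread of all 48 libraries its adjusted p was 0.0635. A pro-MCH entry (LOC101161984), a melanin-concentrating hormone precursor, was at 91.0 to 114 FPKM by day and 54.9 to 93.3 by night (adjusted p = 0.0399). An entry of the appetite peptide AgRP (LOC101171147) was lower by day, at 3.12 to 5.95 against 4.27 to 8.56 FPKM (adjusted p = 0.0462). The pro-MCH and AgRP calls were lost without any 1 of 9 libraries and any 1 of 10. Related entries of the list were tested and not called for day against night. These were an isotocin-like entry (LOC101160739), gnrh1, another pro-MCH entry (LOC101163216) and another AgRP entry (LOC101165589).

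Transcripts of red blood cells rose in the day libraries too. Of 13 marker entries 5 passed the filter on low values and 3 of these were called higher by day, beside 1.94% of all genes. All 5 had their highest mean at hour 10, as did 3207 of all 16481 genes tested. Their median day minus night difference was 0.93 log2 units. A hemoglobin alpha entry (LOC101174997) was at 275 and 228 FPKM at hour 10, 203 and 187 at hour 14 and 67.5 to 145 by night (2.01-fold, adjusted p = 0.00214). The entries gb_101171201 and gb_101170712 were 1.91-fold and 1.80-fold higher, calls lost without the first hour 14 library and, for gb_101171201, without either hour 10 library. Hemoglobin entries may share reads. The summed FPKM of the 13 markers was 953 to 1217 by day and 371 to 789 by night, without overlap, and 2 of the 13 were at 0 in every library. With hour 14 alone as day, chosen after seeing the data, 0 of the 5 were called higher, beside 14 of all 16481 genes tested.

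The sums of other cell types' markers moved with day and night as well. Neuron markers (11 genes) summed to 1714 to 1788 FPKM by day and 1518 to 1712 by night. 0 of the 11 were called by limma, though all 11 differences were above 0. The 9 radial glia markers summed to 1097 to 1145 FPKM by day and 1174 to 1435 by night. A glial fibrillary acidic protein entry (LOC101173548), whose fitted curve peaked at hour 12.2, lay outside this list and was not in the sum. Sums of myelin (1210 to 1556 against 1044 to 1334 FPKM), microglia (219 to 278 against 172 to 235), endothelial (75.2 to 87.8 against 78.8 to 91.9) and retina markers (5.29 to 7.96 against 4.58 to 6.73) overlapped. Muscle markers summed to 9.51 FPKM in the second hour 10 library and 1.3 to 2.85 in the other 11. The part of blood, neuron and glia content in the day against night differences of the hormone, activity-induced and clock genes was not tested.

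**Figure D4:**
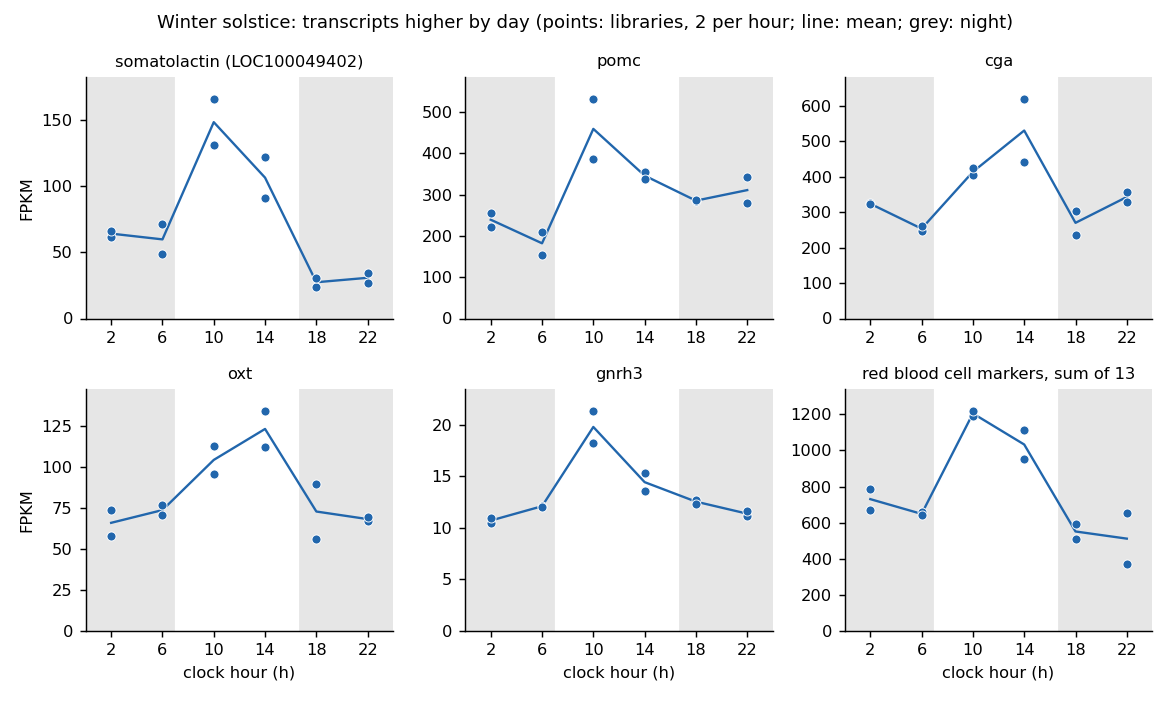
FPKM (y axis, from 0) by clock hour (x axis) in each winter library for somatolactin, pomc, cga, oxt and gnrh3, and the sum of 13 red blood cell markers. Each rises from hour 6 to hour 10, and the day values of somatolactin, cga, oxt, gnrh3 and the marker sum lie above all night values.

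Genes of radial glia, the astrocyte-like cells of the fish brain, were lower by day in part. Of 7 tested markers 3 were lower and 0 higher, beside 2.82% and 1.94% of all genes, with a median of −0.32 log2 units. sox9, a transcription factor of glia, was at 12.2 and 10.6 FPKM at hour 2, 11.7 and 11.9 at hour 6, 5.98 and 6.94 at hour 10, 6.71 and 5.66 at hour 14, 10.3 and 11.2 at hour 18 and 12.8 and 13.2 at hour 22. It was 1.74-fold lower by day with separate groups (log2 difference −0.80, SE 0.06, adjusted p = 0.000202). glul, which turns glutamate into glutamine, was at 293 to 349 FPKM by day and 369 to 447 by night (1.296-fold, adjusted p = 0.00216). The glutamate transporter slc1a2 differed by −0.32 log2 units (adjusted p = 0.0164), a call lost without the second hour 10 or the first hour 14 library. fabp7 (−0.14, adjusted p = 0.278) and s100b (0.29, adjusted p = 0.115), markers of the same cells, did not pass. Outside the list, a glial fibrillary acidic protein entry (LOC101173548), also a radial glia marker, had a called cosine curve with a midday peak. It peaked at hour 12.2 with an amplitude of 0.23 (adjusted p = 0.0323). A glutamine synthetase entry (LOC101163918), also outside the list, peaked at hour 9.55 with an amplitude of 0.32 (adjusted p of the cosine test 0.0211).

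Several further genes were lower by day or rose by hour 18, the first sampled hour after sunset. gpm6b, a membrane glycoprotein of neurons and glia, was at 156 and 130 FPKM at hour 2, 183 and 162 at hour 6, 89.0 and 94.3 at hour 10, 93.5 and 101 at hour 14, 165 and 161 at hour 18 and 161 and 164 at hour 22. It was 1.69-fold lower by day (adjusted p = 0.00017), with separate groups. Across sunset it rose by 0.74 log2 units (adjusted p = 0.0364). s1pr1, a sphingosine-1-phosphate receptor, rose by 0.71 log2 units across sunset (adjusted p = 0.0164). These 2 rises across sunset were lost without either hour 14 library or the first hour 18 library. GPR37L1 (LOC101170331), a receptor of glia, was at 12.2 to 15.01 FPKM by day and 20.7 to 33.5 by night, and ITM2C (LOC101161582) at 49.5 to 67.0 and 72.8 to 143. The called cosine curve of ITM2C peaked later in the night, at hour 1.56 with an amplitude of 0.62.

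A few genes of lipid synthesis were called lower and a minority of the genes of mitochondrial respiration slightly higher by day, beside 2.82% lower and 1.94% higher over all genes. The 19 fatty acid genes summed to 410 to 416 FPKM by day and 442 to 495 by night, and 2 of 17 tested members were lower, with 6 of the 17 differences above 0. These were a fatty acid desaturase 2-like entry (LOC101156814), at 90.4 to 97.7 FPKM by day and 113 to 152 by night (1.38-fold, adjusted p = 0.000667), and fasn, the fatty acid synthase (log2 difference −0.37, adjusted p = 0.0477). Of 21 genes of cholesterol synthesis and its control 2 were lower, srebf1 (−0.31), the master regulator of lipid synthesis genes, and insig1 (−0.32), which holds it back, with 6 of the 21 differences above 0. Of 8 genes of glucose use 1 was lower, txnip (−0.28), which restrains glucose uptake. Of 61 oxidative phosphorylation genes 10 were higher and 0 lower, with a median of 0.14, and 49 of the 61 differences were above 0. All genes tested split into 8528 above and 7949 below 0. The called rises were small, at 0.18 to 0.35 log2 units, among them ndufa12 (0.32, adjusted p = 0.0149) of complex I and atp5pd (0.25, adjusted p = 0.0192) of the ATP synthase. The fasn call was lost without any 1 of 10 libraries, and those of srebf1, insig1, txnip and atp5pd without the first library of hour 10 or of hour 14. The ndufa12 call was lost without the first library of hour 14. The mean was highest at hour 10 for 29 of the 61 and lowest at hour 6 for 30. Over all 16481 genes tested these counts were 3207 and 3719.

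Few genes of protein synthesis and turnover were called by day against night. Of 87 ribosomal protein genes 2 were higher by day and 0 lower (median 0.07 log2 units), and of 34 proteasome genes 1 was higher, psmd14, both near the 1.94% of all genes called higher. Differences were above 0 for 64 of the 87 and 27 of the 34, against 8528 of all 16481 genes tested. The mean was highest at hour 10 for 49 of the 87 ribosomal genes and at hour 22 for 35. Over all genes tested it was highest at these hours for 3207 and 3886. Of 22 genes of endoplasmic reticulum chaperones and stress 2 were higher, hsp90b1 (0.17) and a calreticulin entry (0.23), and 1 was lower, atf6 (−0.19). Among 11 microglia markers 2 were lower, p2ry12 among them (−0.46), although 7 of the 11 differences were above 0 and the list median was 0.08. Among 9 endothelial markers 1 was lower, mfsd2a (−0.32), a lipid transporter of brain vessels, with 5 of the 9 differences above 0 and a median of 0.04. These single calls in protein and marker lists were each lost without at least 1 library. The calls of lower members in these short lists stand beside 2.82% of all genes called lower by day. In limma's day against night test 0 members were called among 10 thyroid and photoperiod genes, 16 melatonin and opsin genes, 12 myelin markers and 6 cell division genes. Over all genes that test had 3742 at an unadjusted p under 0.05.

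**Figure D5:**
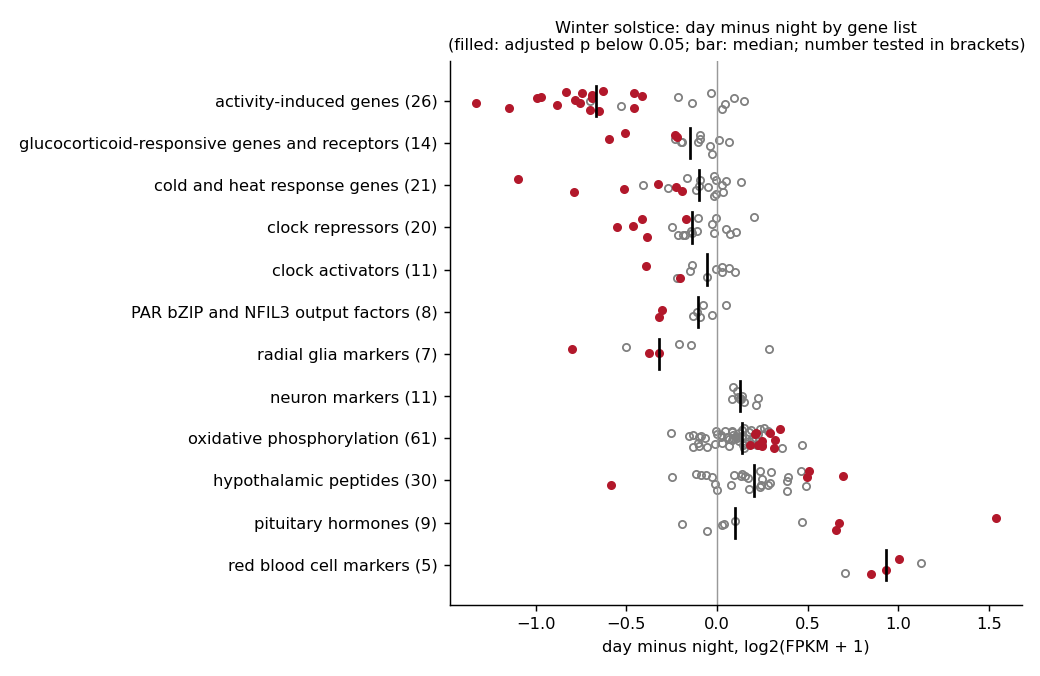
Day minus night difference on the log2(FPKM + 1) scale (x axis) for the tested members of 12 gene lists, filled where the adjusted p is under 0.05, with a bar at each list's median. Activity-induced genes lie farthest to the left (median −0.67) and red blood cell markers farthest to the right (median 0.93).

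Set against the mean of the other 5 hours, hour 10 stood out. There 44 genes (0.267%) were higher and 174 (1.06%) lower. At hour 2, 14 genes (0.0849%) were higher and 0 (0%) lower. At hour 6, 21 (0.127%) were higher and 6 (0.0364%) lower. At hour 14, 0 (0%) were higher and 7 (0.0425%) lower, at hour 18, 2 (0.0121%) were higher and 2 (0.0121%) lower, and at hour 22, 5 (0.0303%) were higher and 4 (0.0243%) lower. Across sunrise, from hour 6 to hour 10, 27 genes (0.164%) rose and 127 (0.771%) fell. Across sunset, from hour 14 to hour 18, 5 (0.0303%) rose and 1 (0.00607%) fell. With limma at an unadjusted p under 0.05, the counts were 1353, 2104, 2509, 1828, 1357 and 2632 for hours 2 to 22, 2412 across sunrise and 1697 across sunset. The count of 218 genes at hour 10 became 40 and 69 without its first and second library, 132 without the second of hour 14 and 141 without the second of hour 18. The count of 154 across sunrise became 52 and 76 without the first and second hour 10 library and 81 without the first of hour 6. Counts at the other hours and across sunset were small, and each moved by more than 1.5 times with several single libraries.

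One kinase gene marked the hour after sunset. CDK17 (LOC101161849), a cyclin-dependent kinase of differentiated cells, was at 57.3 and 56.1 FPKM at hour 18 and at 22.4 to 28.6 in the other 10 libraries. It was 2.19-fold above the other hours (adjusted p = 0.000158), and 2.21-fold above hour 14 (adjusted p = 0.00151). An outer dense fiber protein entry (LOC101158139, ODF2), a centrosome component, was highest at hour 10. It was at 17.1 in both libraries of hour 10, 11.9 and 11.8 at hour 14, 7.44 and 7.09 at hour 18, 4.76 and 3.24 at hour 22, 10.2 and 7.02 at hour 2 and 10.4 and 10.1 at hour 6, in FPKM. All day values lay above all night values (1.88-fold, adjusted p = 0.00135). dnajc8, a DnaJ family member, was 0.71 log2 units higher by day (adjusted p = 0.0191), a call lost without any 1 of the 4 day libraries.

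Before dawn, at hour 6, 2 entries were called that were otherwise near or at 0. An elongation factor 1-alpha entry (LOC101170939) was at 5.97 and 8.21 FPKM there, at 1.44 in the second hour 22 library and listed at 0 in the other 9. Mincle (LOC101163877, C-type lectin domain family 4 member E), a receptor of macrophages, was at 6.05 and 4.09 FPKM at hour 6 and at 0 to 0.86 in the other 10 libraries. Both calls (adjusted p = 0.00413 and 0.0111) were lost with a pseudocount of 0.1, and the first entry may share reads with related elongation factor genes. Genes called lower at hour 6 were a histone H2A (LOC111946911, −0.61), a spectrin (LOC101164035, −0.45), pfdn1 (−0.40) and a complex III assembly factor (LOC101162280, −0.39), in log2 units. Each of these 4 calls was lost without any 1 of 8 to 12 libraries. At hour 22, vldlr (0.46) and complement C7 (LOC101174608, 0.68) were higher and a dioxygenase-like entry (LOC101157460, −0.57) and st6galnac6 (−0.39) were lower, all at an adjusted p of 0.0438 and each lost without any 1 of 10 libraries.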

How the data were processed

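RNA was measured in 48 libraries (12 per season, 2 per clock hour), and the 12 winter libraries were compared. The values are FPKM, deposited by the authors as 1 table. Per the submitters' processing notes, Bowtie2 2.2.5 and RSEM 1.2.12 were used. Which step each did is not stated there. The annotation behind the gene entries, like the build, is not given in the sources used here. The table holds 26167 entries with 2 decimals, so 0.01 is the smallest value above 0, and 9.23% of winter values are 0. Read depth is unknown, so no counting intervals are given. Each column name matched 1 sample, and 273 entries equalled another entry in every library, 10 of them among the genes tested. RefSeq's gene table named 25080 entries, and 945 have no description. Groups came from the labels' season and hour.

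Genes with a mean of at least 1 FPKM over the libraries of a fit were tested (16481 in winter, 16622 over the 48 libraries) as log2(FPKM + 1), with limma 3.58.1 (trended variance) in R 4.3.3, Benjamini-Hochberg adjustment over all genes tested and a threshold of 0.05. The winter fit had 6 hour means and 6 residual degrees of freedom. Its contrasts were any difference between hours, hours 10 and 14 against the other 4, each hour against the mean of the other 5, hour 10 against hour 6 and hour 18 against hour 14. A 24 h cosine curve was fitted with 9 residual degrees of freedom. Curves were compared between seasons in 1 fit of 48 libraries with 36. The code was tested on simulated data. Sunrise and sunset were computed from latitude, longitude and date.

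Named genes were list members, or the top by rank among called genes with a name and a mean of at least 5 FPKM: 15 over the hours, 12 by cosine curve, 8 higher and 8 lower by day with separate groups, 4 each way per hour and per step, and 5 per season difference. Lists are name patterns on symbols and descriptions. The list members, rules and comparisons were chosen with earlier results of these data known. Where a gene lay outside them, the text says so. One gene that the rule names is not reported here. Alternatives were a pseudocount of 0.1, no filter, median-ratio scaling, quantile normalization, array weights, a fit of all 48 libraries, the fit of 2 seasons and leaving out each library.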

Additional observations from a re-analysis of the deposited data

Results flagged for a closer look

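The difference between the winter curve and that of another season is listed here for single genes, by the limma test of the difference itself. The check for a sample far from the others was not applied, because each hour has 2 libraries. The 3 season comparisons share the winter libraries.

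Against spring, the adjusted p of the difference was 0.000172 for a purine nucleoside phosphorylase (LOC101162955), 0.00021 for amacr, 0.00133 for an ankyrin repeat gene (LOC101171363), 0.00162 for complement C7 (LOC101174608) and 0.00193 for a zinc finger gene (LOC101161156). These genes peaked at different hours in the 2 seasons. LOC101162955 peaked at hour 23.6 in winter and 9.99 in spring, with amplitudes of 0.24 and 0.32. amacr, an enzyme of branched fatty acid breakdown, peaked at hours 8.46 and 18.6, LOC101171363 at 9.77 and 19.97, LOC101174608 at 21.9 and 8.9 and LOC101161156 at 12.4 and 21.2.

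Against summer, the adjusted p was 4.33e-20 for bhlhe41, 5.24e-17 for ROR-beta-like (LOC101170052), 3.68e-16 for nr1d1 (LOC101173939), and 1.69e-15 for both per3 (LOC101159817) and hlf (LOC101163688). It was 5.37e-08 for per2, 0.00064 for LOC101161338, 5.52e-06 for LOC101160902 and 1.22e-07 for LOC101174986. The activity-induced genes npas4, fosb and egr1 had adjusted p of 0.0209, 0.0147 and 0.0319.

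Against autumn, the adjusted p was 2.25e-21 for bhlhe41, 4.32e-17 for nr1d1 (LOC101173939), 9.47e-16 for per3 (LOC101159817), and 1.37e-15 for both npas2 (LOC101172430) and the BMAL1 gene (LOC101159313). In winter the amplitudes of these 5 genes were 0.05, 0.20, 0.11, 0.05 and 0.12 log2 units.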

How the results depend on the processing

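No paired analysis was possible because the labels number the libraries 1 to 12 within a season and give no replicate number that hours share. No named result of day against night, of an hour against the others or of a step across sunrise or sunset changed its direction. The tests over the 6 hours, of cosine curves and of season differences have no sign that could change. The 48-library fit gave 476 genes over the 6 hours, 1237 by day against night (591 higher, 646 lower), 48, 384, 52, 8 and 17 at hours 6, 10, 14, 18 and 22, 280 across sunrise and 33 across sunset. Without the filter, 462 genes differed between day and night, 90 had a cosine curve, and 13, 2 and 8 were called at hours 6, 14 and 18. With array weights 542 genes had a cosine curve, 3 were called at hour 6 and 65 at hour 22. At hour 22 the 5 higher and 4 lower genes became 0 and 1 with median-ratio scaling and 0 and 2 with quantile normalization, and at hour 18 the 2 and 2 became 2 and 1 with median-ratio scaling. Before any such scaling, the median over genes of a library's difference from the gene means was −0.02 to 0.02 log2 units. With hour 14 alone as day 77 genes differed, with 6 activity-induced genes and 0 red blood cell markers. With hour 10 alone as day 337 differed. Both were chosen after seeing the data. The cause of these changes was not tested.

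Leaving out 1 library gave 71 to 167 genes over the hours, 177 to 982 by day against night, 24 to 306 with a cosine curve, and 5 to 13, 7 to 42, 40 to 228, 0 to 13, 1 to 8 and 0 to 40 at hours 2 to 22. Across sunrise it gave 52 to 133 and across sunset 1 to 13. Season differences numbered 340 to 1078 (spring), 1251 to 1633 (summer) and 1333 to 1746 (autumn). Activity-induced genes lower by day numbered 16 to 18 and red blood cell markers 1 (without the first hour 14 library) to 5 (without the first of hour 6). Clock repressors with another curve than in summer numbered 19 in each, and than in autumn 17 to 18. Of 397 single-gene results, 184 lost their call without at least 1 library, 78 without the filter, 24 under quantile normalization, 11 under median-ratio scaling and 7 at a pseudocount of 0.1, and 71 of 320 in the 48-library fit. The unknown depth limits the reading of values near 0.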

Other observations

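Outside the lists and ranks, further genes chosen after their values were seen were low by day in winter. C/EBP beta (LOC101155601), a transcription factor induced in stimulated cells, was at 0.5 to 1.85 FPKM by day and 3.02 to 5.66 by night (2.54-fold, adjusted p = 0.000545). dusp5, a phosphatase of ERK, was at 8.47 to 15.3 FPKM by day and 13.8 to 27.4 by night (adjusted p = 0.000466). zfp36 (LOC101175179), which speeds the decay of short-lived mRNAs, was at 1.31 to 3.44 and 3.33 to 5.14 FPKM (adjusted p = 0.00278). A DDIT4-like gene (LOC101162852), an inhibitor of mTOR signalling, was at 5.25 to 8.48 and 7.01 to 16.4 FPKM (adjusted p = 0.00655). cyr61 and ctgf, secreted matrix proteins of the CCN family, were at 12.7 to 23.4 and 3.15 to 4.25 FPKM by day and at 21.6 to 31.7 and 5.01 to 7.09 by night. The day and night ranges of C/EBP beta and ctgf were separate, and those of dusp5, zfp36, the DDIT4-like gene and cyr61 overlapped.

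Other single genes, chosen in the same way, were low by day as well. slc6a6, the taurine transporter, was at 7.14 to 9.16 FPKM by day and 10.4 to 14.8 by night (adjusted p = 0.00165), and a GABA transporter 2 entry (LOC101165729) at 9.99 to 12.9 and 13.1 to 22.3 (adjusted p = 0.00404). notch2 (LOC101162450), a receptor of neural stem cells, was at 4.03 to 5.41 and 7.13 to 9.1 FPKM (adjusted p = 0.000871). igfbp1 (LOC101165969), a binding protein of insulin-like growth factors, was at 5.09 to 6.47 and 6.56 to 13.5 FPKM (adjusted p = 0.00103). In these 4 genes no day library reached the lowest night library. A histone H1 entry (LOC101167624) went the other way, at 22.7 to 36.5 FPKM by day and 11.5 to 24.0 by night (adjusted p = 0.0176), and its call was lost without any 1 of the 4 day libraries.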
